A study of Bos taurus with 28 samples.

Results

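The 4 genes described here are those of the muscle growth axis: GHR (ENSBTAG00000001335), IGF1 (ENSBTAG00000011082), IGF2 (ENSBTAG00000013066) and MSTN (ENSBTAG00000011808). They were taken by identifier from 24616 gene rows, all 4 were found, and 3 of the 4 (GHR, IGF2 and MSTN) had enough counts to be tested. The study took muscle biopsies from 12 male steers, crosses of Aberdeen Angus with Holstein Friesian, and sequenced poly(A)-selected RNA. Up to day 99, the 6 control steers had free access to concentrates and a daily 7 kg of grass silage, while the 6 restricted steers had free access to grass silage and a daily 0.5 kg of concentrate. From then on all 12 ate the same mixed ration of 80% silage and 20% concentrate, and the second biopsy, at day 131, fell 32 days into this realimentation. The sample descriptions call the feeding at day 131 ad libitum. Each steer was biopsied on both days, which gives 4 groups of 6 samples. The change of ration also applied to the control steers, so time, age and ration cannot be told apart within a diet.

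Growth hormone binds GHR, a receptor of the cell surface that signals through JAK2 and STAT5, and a classical product of this signal is IGF1. IGF1 and the related IGF2 act on muscle through the IGF1 receptor to promote protein synthesis and the growth of fibres, and IGF2 is an imprinted gene. MSTN encodes myostatin, a secreted member of the TGF-beta family that muscle itself makes and that restrains muscle mass. Its loss of function underlies double muscling in cattle. Feed restriction is known to lower circulating IGF1, whose main source is the liver.

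Levels are given in CPM, the usual unit for read counts relative to the total of their sample, and that total was scaled by a TMM factor that allows for library composition. CPM is not corrected for gene length, so levels are compared between samples and not between genes. Sample totals ran from 3342314 to 24376288 counts. TMM factors ran from 0.786 to 1.69 and were above 1.3 in 3 samples. These were steers 3 (day 99) and 5 (day 131) of the control diet and steer 5 (day 99) of the restricted diet, and results that rest on them are given with and without them. The tissue is labelled only as muscle. The files list identifiers without symbols, and 0 of 24616 matched the reference table. The names of the 4 genes were therefore taken as given, and the markers of muscle and of other cell types, and the other genes of these pathways, were not looked up. In RefSeq's annotation of the assembly ARS-UCD2.0, IGF2 lies beside INS and holds MIR483 within its span, GHR lies between CCDC152 and FBXO4, 1 other record overlaps each of GHR and IGF1, and no other gene record overlaps MSTN. How the authors' counting treated reads shared by overlapping genes is not given in the sources used here.

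Among the 3 members that passed the filter, GHR had the lowest unadjusted p in the changes over time, with lower values at day 131 than at day 99 under both diets. In control steers at day 99 its lowest, median and highest values were 11.2, 18.2 and 46.5 CPM. In control steers at day 131 they were 4.55, 8.37 and 26.3 CPM. In restricted steers they were 5.92, 15.8 and 24.2 CPM at day 99. At day 131 they were 3.51, 8.39 and 11.2 CPM. Restricted steers at day 131 lay at or below the lowest control value of day 99, the nearest pair of values being equal to 3 digits. These 2 groups differ in both diet and day, and all other groups overlapped. How many of all genes separate the same 2 groups was not counted, so the near separation is not read as particular to GHR. The highest value of each of the first 3 groups belonged to the sample of that group with a TMM factor above 1.3.

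**Figure D1:**
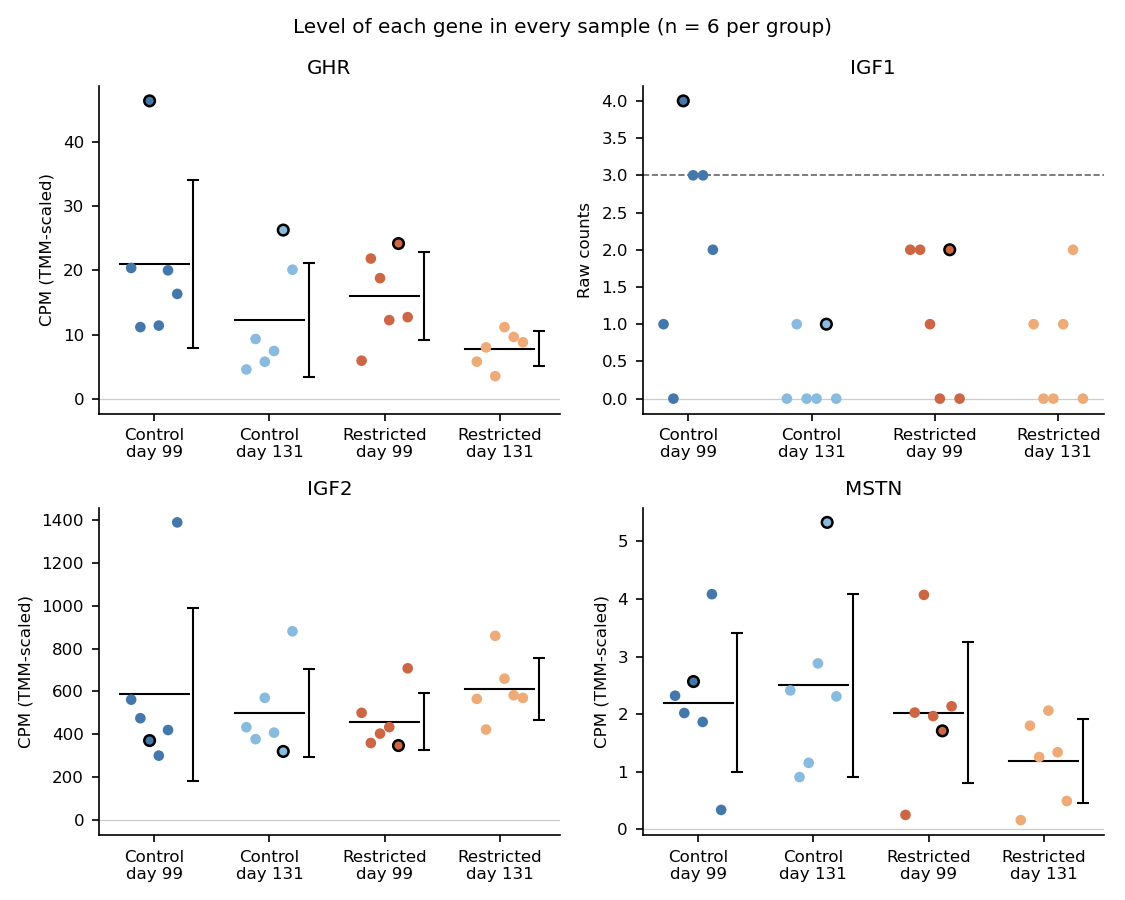
The vertical axes give CPM for GHR, IGF2 and MSTN and raw counts for IGF1, with 1 point per sample in the 4 groups, and, where CPM is shown, the group mean as a line and the SD as a bar (n = 6). A dashed line marks 3 counts for IGF1, and black outlines mark the 3 samples with a TMM factor above 1.3. Apart from GHR in control steers at day 99 and restricted steers at day 131, whose ranges only touch, all groups overlap for every gene. Those 2 groups differ in both diet and day, and the share of all genes that separate them was not counted. GHR means run from 7.81 CPM in restricted steers at day 131 to 21.0 CPM in control steers at day 99, and 1 sample lies above the IGF1 line.

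Mean GHR was highest at day 99, at 21.0 ± 13.1 CPM (SD, n = 6) in controls and 16.0 ± 6.87 CPM (SD, n = 6) in restricted animals. At day 131 it was 12.2 ± 8.86 CPM in controls and 7.81 ± 2.76 CPM in restricted animals. Each step between neighbours in this order was smaller than the larger SD of the 2 groups. In restricted steers GHR was lower at day 131 in 6 of 6 animals, with changes of -0.04 to -2.35 in log2 CPM. Steers 1 and 4 moved least, by -0.04 and -0.13, and steer 3 moved most. The fitted difference in restricted steers was -1.03 ± 0.42 (SE) on the log2 scale, a 2.05-fold lower level, with a 95% interval of -1.90 to -0.17. Its unadjusted p was 0.0207 and its adjusted p 0.216 by edgeR's quasi-likelihood test over all 11288 genes, so it did not pass at 0.05, and none of the 3 members tested did. In the same comparison 43 of 11288 genes passed, 0.381% of those tested, and 2116 had an unadjusted p under 0.05. A smaller p than that of GHR was found for 9.55% of genes, and the median log2 fold change over all genes was -0.07. The value shrank to -0.41 (adjusted p = 0.568) with 1 surrogate variable, a pattern shared by many genes and estimated from all of them, as a covariate. Without the 3 samples with high TMM factors it was -0.92 (adjusted p = 0.198). Over all 35 alternatives it ran from -1.195 to -0.41. The lowest adjusted p among them was 0.0924 by edgeR, with only the 2 groups compared in the fit (-1.12).

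In control steers GHR was lower at day 131 in 4 of 6 animals and higher in steers 5 and 6. The difference was -0.77 ± 0.41 (SE) on the log2 scale, with a 95% interval of -1.61 to 0.08 and an edgeR adjusted p of 0.722. It was -0.25 without control steer 3 at day 99 and -1.22 without control steer 5 at day 131, the 2 control samples with high TMM factors. By edgeR 0 of 11288 genes passed between the days in control steers (0%), with 439 at an unadjusted p under 0.05, and DESeq2 and limma voom also called 0. Whether the time change of GHR differed between the diets was tested as the diet by day interaction, which was -0.27 ± 0.59 (SE, 95% interval -1.47 to 0.93, edgeR adjusted p = 1.00). A difference between the diets in the change of GHR was thus not detected, and the interval includes differences beyond 1 log2 unit in the negative direction. Its sign turned to 0.11 without 1 sample, control steer 5 at day 131.

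Because both diets pointed the same way, the 2 days were also compared over both diets, which was decided after seeing the data. GHR was lower at day 131 by -0.90 ± 0.30 (SE) on the log2 scale, 1.87-fold, with a 95% interval of -1.50 to -0.30. Its unadjusted p was 0.00492 and its edgeR adjusted p 0.114, while 37 of 11288 genes passed (0.328%). An unadjusted p under 0.05 was found for 2941 genes, and 4.31% of genes had a smaller p than GHR. Without control steer 5 at day 131 the value was -1.17 with an adjusted p of 0.0128, but 33.9% of all genes tested passed in that fit. With the surrogate variable it was -0.42 with an adjusted p of 0.510. Within the sequencing runs named in the files, the difference of mean log2 CPM in restricted steers was -1.15 in run 2, -0.91 in run 3 and -0.73 in run 4. In control steers it was -1.11, -0.94, -1.64 and -0.22 in runs 1 to 4. All 7 within-run differences were negative, each from 1 or 2 samples a side, and run 1 held no restricted sample of day 131.

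Between the diets, GHR did not pass the test on either day. At day 99 restricted steers differed from control steers by -0.39 ± 0.41 (SE) on the log2 scale, with a 95% interval of -1.23 to 0.45 and an edgeR adjusted p of 1.00. This sign turned to 0.10 without control steer 3 at day 99, the sample with 46.5 CPM. At day 131 the difference was -0.66 ± 0.42 (SE, 95% interval -1.52 to 0.21, edgeR adjusted p = 1.00). It was -0.30 without control steer 5 and -0.25 with the surrogate variable. Within runs 1 to 4 the day 99 difference was 0.10, 0.09, -0.69 and -0.38 in log2 CPM. Within runs 2 to 4 the day 131 difference was -0.11, 0.04 and -0.89, so that neither kept 1 sign. Each of these values came from 1 or 2 samples a side. EdgeR called 0 of 11288 genes (0%) between diets at day 99 and 0 (0%) at day 131, with 486 and 196 at an unadjusted p under 0.05. DESeq2 called 20 and 3, limma voom 1 and 0, and GHR was not among the genes passing in any of these fits.

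**Figure D2:**
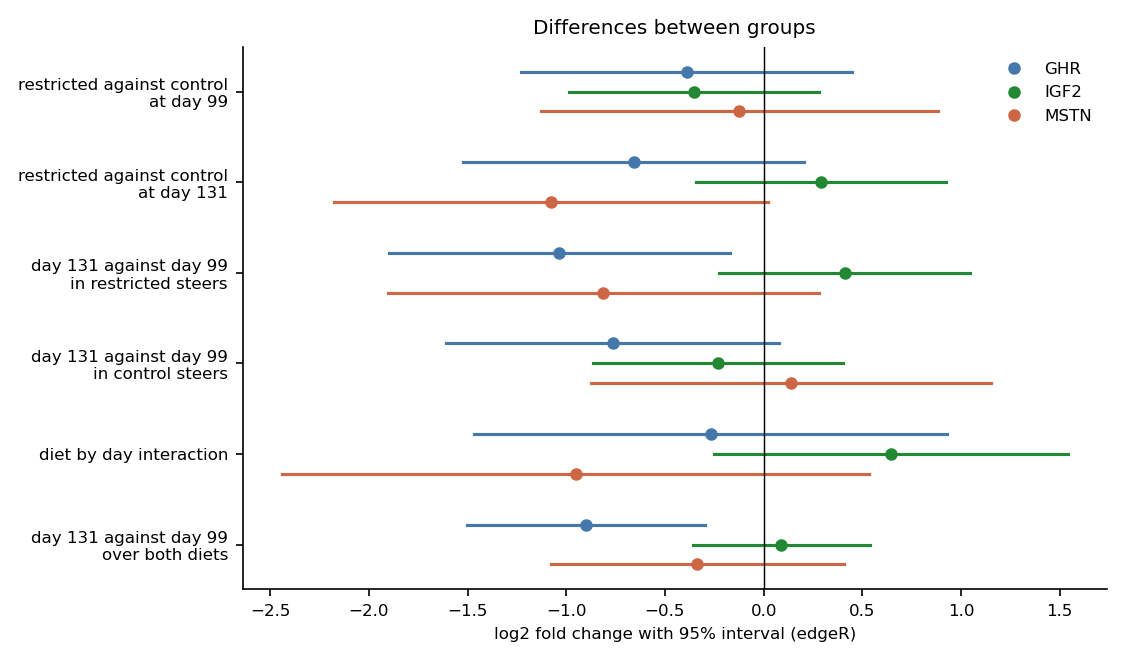
The horizontal axis gives the edgeR log2 fold change with its 95% interval for GHR, IGF2 and MSTN in the 5 comparisons of the design and in the added comparison over both diets. The intervals of GHR for the days in restricted steers (-1.90 to -0.17) and over both diets (-1.50 to -0.30) lie below 0, and all others include 0.

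IGF1, the ligand that growth hormone signalling induces in many tissues, was close to undetected in these libraries. In control steers at day 99 it had 0 to 4 counts per sample, and 13 counts in all. In control steers at day 131 it had 0 or 1 count per sample, and 2 in all. Restricted steers had 0 to 2 counts per sample on both days, 7 in all at day 99 and 4 at day 131. Over the 24 samples there were 26 counts of 212959768, and 10 samples had none. A single sample, control steer 3 at day 99, exceeded 3 counts, the limit that a count of 0 allows, which corresponds to 0.117 to 1.00 CPM across the samples.

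Pooled over samples, IGF1 stood at 0.238 CPM in control steers at day 99 (95% exact Poisson interval 0.127 to 0.406, counting error only). At day 131 control steers stood at 0.0388 CPM (0.0047 to 0.14). Restricted steers stood at 0.1002 CPM (0.0403 to 0.207) and 0.108 CPM (0.0295 to 0.278) on the 2 days. The intervals of the 2 control days overlapped narrowly, and those of the 2 restricted days overlapped over most of their length. The gene fell below the filter on low counts, and no fold change is given since the groups lie at or near the limit. In a fit without the filter, the lowest unadjusted edgeR p over the 5 comparisons was 0.0182, for the days in control steers, with an adjusted p of 0.716. Between the control days 5 of 6 steers were lower at day 131. No difference in IGF1 passed the adjusted test, and the counts give its size little precision.

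IGF2, the second IGF ligand, was well counted, with 1618 to 9231 reads per sample, and showed no difference that passed the test. In control steers its lowest, median and highest values were 300.6, 447.5 and 1388 CPM at day 99. At day 131 they were 320.2, 420.5 and 880.2 CPM. In restricted steers they were 347.7, 418.4 and 707.8 CPM at day 99 and 422.2, 576.0 and 859.1 CPM at day 131. The highest value on each control day came from the same animal, control steer 6, and all 4 ranges overlapped.

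By mean, IGF2 stood highest in restricted steers at day 131, at 609.7 ± 144.3 CPM (SD, n = 6). Controls followed with 586.0 ± 402.7 CPM at day 99 and 498.2 ± 204.8 CPM at day 131, and restricted animals at day 99 were lowest with 458.7 ± 133.9 CPM. Neighbours in this order differed by less than their SDs. In restricted steers IGF2 was higher at day 131 in 5 of 6 animals, with changes from -0.31 to 1.09 in log2 CPM. The fitted difference was 0.41 ± 0.31 (SE) on the log2 scale, 1.33-fold, with a 95% interval of -0.22 to 1.04 and an edgeR adjusted p of 0.427. In control steers it was higher in 2 of 6 animals, and the difference was -0.23 ± 0.31 (SE, 95% interval -0.87 to 0.40, edgeR adjusted p = 0.753).

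The diet by day interaction of IGF2 was 0.64 ± 0.44 (SE) on the log2 scale, with a 95% interval of -0.25 to 1.54 and an edgeR adjusted p of 1.00, in a comparison where 0 of 11288 genes passed (0%), 283 had an unadjusted p under 0.05, DESeq2 called 2 and limma voom 0. It dropped to 0.15 without control steer 6 at day 99, the sample at 1388 CPM. The same sample decided the sign of the control change, which was 0.28 without it. It also decided the diet difference at day 99, which was -0.35 ± 0.31 (SE, edgeR adjusted p = 1.00) with it and 0.11 without. At day 131 the diets differed by 0.29 ± 0.31 (SE, 95% interval -0.34 to 0.93, edgeR adjusted p = 1.00). This was 0.17 without control steer 5 and also without restricted steer 3 at day 131, 0.50 without control steer 6 at day 131, and 0.16 without the 3 samples of high TMM factor. Within runs the restricted difference between days was 0.53, 0.60 and 0.05 in log2 CPM in runs 2, 3 and 4. In control steers it was -0.57, 0.59, 0.65 and -1.94 in runs 1 to 4, so that its sign varied. Each of these values came from 1 or 2 samples a side. In run 4 the only control sample of day 99 was that of steer 6, at 1388 CPM.

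MSTN, the inhibitor of muscle growth among the 4 genes, was detected at low level, with 1 to 73 reads per sample. In control steers its lowest, median and highest values were 0.334, 2.17 and 4.08 CPM at day 99. At day 131 they were 0.905, 2.36 and 5.33 CPM. In restricted steers they were 0.247, 2.00 and 4.07 CPM at day 99 and 0.156, 1.29 and 2.06 CPM at day 131. Restricted steers at day 131 thus had the lowest maximum of the 4 groups, while their values overlapped with those of each other group. In 4 samples MSTN had at most 3 counts, among them both samples of restricted steer 1.

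The mean level of MSTN in controls was 2.498 ± 1.59 CPM (SD, n = 6) at day 131 and 2.20 ± 1.21 CPM at day 99. Restricted animals followed with 2.03 ± 1.22 CPM at day 99 and 1.18 ± 0.737 CPM at day 131. Neighbours in this order differed by less than the larger SD of the pair. The difference between diets at day 131 was -1.08 ± 0.54 (SE) on the log2 scale, a 2.11-fold lower level in restricted steers, with a 95% interval of -2.17 to 0.02. Its unadjusted p was 0.0548 and its edgeR adjusted p 1.00, and 1.93% of the genes tested had a smaller p. Without control steer 5 at day 131, the sample at 5.33 CPM with a high TMM factor, it was -0.69. Within runs 2, 3 and 4 the difference was 0.33, -1.02 and -2.45 in log2 CPM, each from 1 or 2 samples a side, and its sign varied. Run 4 held control steer 5 and restricted steer 1, which had 1 read of MSTN at day 131.

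At day 99 the diets differed in MSTN by -0.12 ± 0.49 (SE, 95% interval -1.13 to 0.88, edgeR adjusted p = 1.00). The sign turned, to 0.13 without control steer 5 and to 0.07 without restricted steer 1 at day 99. In restricted steers MSTN was lower at day 131 in 5 of 6 animals, with a difference of -0.81 ± 0.53 (SE, 95% interval -1.90 to 0.28, edgeR adjusted p = 0.373). It was -0.50 without restricted steer 3 at day 99 and -0.44 with the surrogate variable. Most of that came from steers 3 and 6, which moved by -1.55 and -1.74 in log2 CPM, while the others moved by -0.31 to 0.06. Restricted steer 6 had 2 reads of MSTN at day 131. Restricted steer 1, counted among the 5, had 1 read on each day, so its change came from the scaled totals of its samples. Within runs 2, 3 and 4 the difference was 0.87, -1.76 and -1.57 in log2 CPM, each from 1 or 2 samples a side. In control steers it was higher in 4 of 6 animals, with a difference of 0.14 ± 0.50 (SE, 95% interval -0.87 to 1.15, edgeR adjusted p = 0.895), and turned to -0.31 without control steer 5 at day 131. The largest control change, 2.20, belonged to steer 6, whose day 99 sample held 1 read of MSTN. The diet by day interaction was -0.95 ± 0.73 (SE, 95% interval -2.44 to 0.54, edgeR adjusted p = 1.00), and -0.58 without control steer 5 at day 131.

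**Figure D3:**
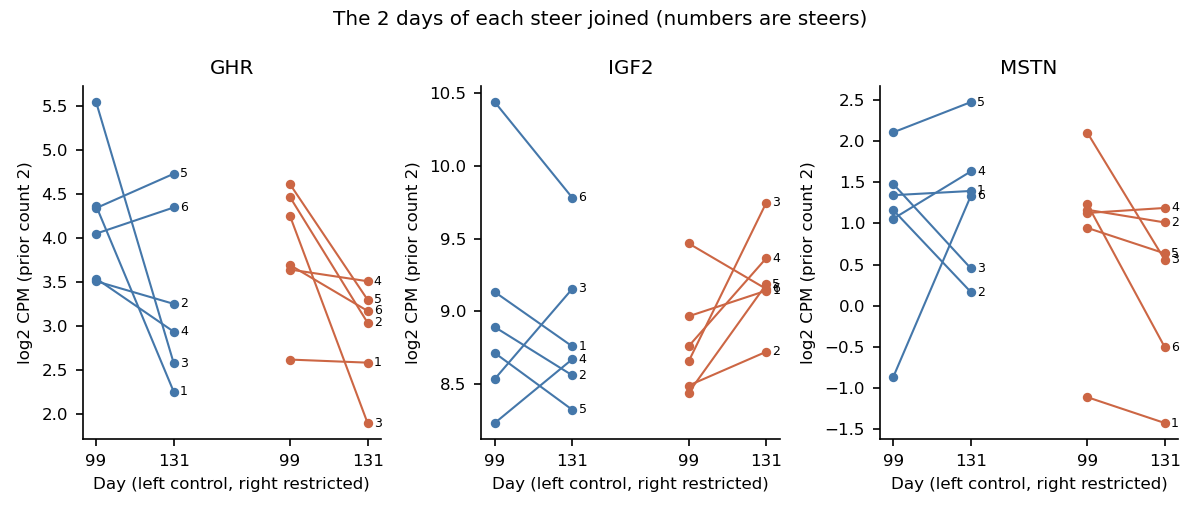
The vertical axes give log2 CPM of GHR, IGF2 and MSTN, and each line joins day 99 and day 131 of 1 steer, control steers at the left and restricted steers at the right of each panel. GHR lines slope down in 6 of 6 restricted and 4 of 6 control steers, IGF2 lines slope up in 5 of 6 restricted and 2 of 6 control steers, and control steer 6 lies highest for IGF2 on both days.

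The 3 tested genes differed in how much their values varied between samples of 1 group. The SD of log2 CPM within groups was 0.78 for GHR, 0.53 for IGF2 and 0.98 for MSTN, against a median of 0.60 over all 11288 genes. MSTN lay at the 95.5th percentile of this spread, GHR at the 78.2nd and IGF2 at the 37.5th. This SD includes counting noise, which weighs most on the low counts of MSTN. The biological coefficient of variation estimated by edgeR allows for counting noise. It was 0.49 for GHR, 0.38 for IGF2 and 0.54 for MSTN, beside a median of 0.40 over all genes. The 4 groups accounted for 33.1% of the variance of GHR, 9.78% of that of IGF2 and 14.9% of that of MSTN, beside a median of 16.0% over all genes. Sequencing run accounted for 16.1%, 7.10% and 9.27%, beside a median of 6.20%.

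GHR lay higher in samples with a larger TMM factor on both scales of level, and IGF2 did not. CPM holds the factor in its divisor, so the relation of a level to the factor is given with and without that scaling. Over the samples it is a description with no test. Over the 24 samples, which come from 12 steers and share their depth, the log2 level of GHR correlated with the log2 TMM factor at r = 0.69 scaled and 0.81 unscaled. IGF2 gave r = -0.49 scaled and 0.07 unscaled, so that its negative value was present only after division by the factor. MSTN gave 0.46 scaled and 0.64 unscaled. The median over all genes was 0.08 scaled and 0.58 unscaled. All 6 restricted samples of day 131 had TMM factors below 1, from 0.786 to 0.992, and the GHR mean was lowest in that group on both scales, at 6.93 CPM unscaled.

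Over the changes of the 12 steers from day 99 to day 131, GHR and the log2 TMM factor gave r = 0.741 scaled and 0.849 unscaled. The scaled value was 0.869 within the control steers and 0.378 within the restricted steers (n = 6 each), 0.658 without the 2 farthest steers and 0.432 over the 9 steers without a high TMM factor. IGF2 gave r = -0.624 scaled, -0.548 over the 9 steers and 0.049 unscaled. MSTN gave r = 0.284 scaled, with 0.571 within the control and -0.655 within the restricted steers, and 0.551 unscaled. The part of composition in the differences between groups was not tested beyond the fits with the surrogate variable and without the 3 samples. In whole biopsies, fewer cells of a type and less RNA per cell cannot be told apart.

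**Figure D4:**
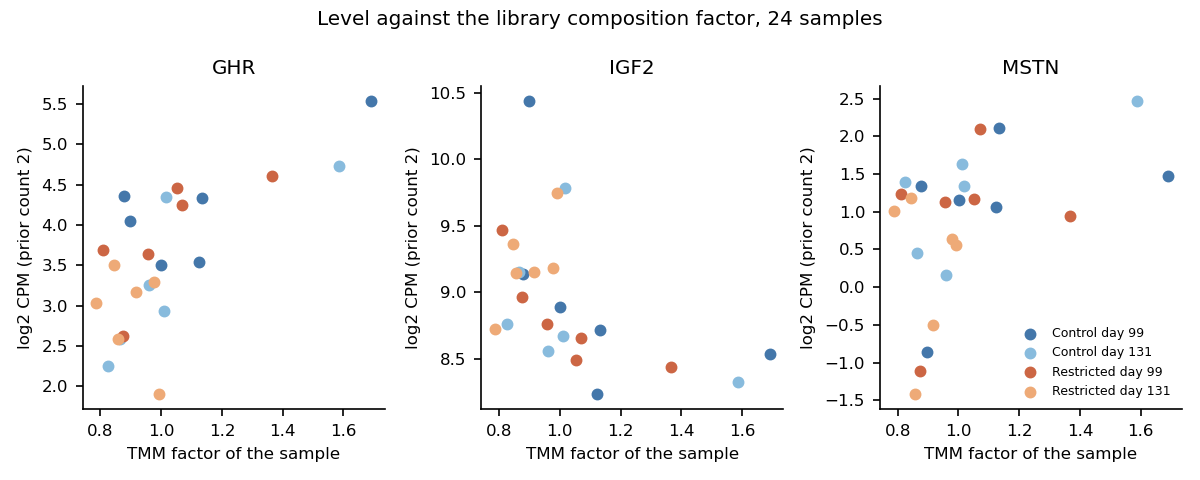
The horizontal axes give the TMM factor of each of the 24 samples and the vertical axes log2 CPM of GHR, IGF2 and MSTN, coloured by group. GHR lies higher at larger factors (r = 0.69), the negative relation of IGF2 (r = -0.49) holds for levels divided by the factor and is 0.07 for unscaled levels, and the restricted samples of day 131 all lie at factors below 1.

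No pair of members moved together in a way that passed the test after adjustment over 6 relations, the 3 pairs and each gene with the TMM factor. With the factor, GHR had an adjusted permutation p of 0.0248 for r, and IGF2 0.0777 for r and 0.0181 for rho. Over the 9 steers without a high factor, both genes had an adjusted permutation p of 0.417 for r. On unscaled levels GHR with the factor had an adjusted permutation p of 0.00252 for r and 0.0553 for rho, and IGF2 0.898 for r. Dividing by the factor lowers r, and on unscaled levels the median r over all genes was 0.58 over the 24 samples. None of these p-values is thus read as a relation of the genes. GHR and IGF2 gave Pearson r = -0.544 (permutation p = 0.0684, adjusted p = 0.137) and Spearman rho = -0.629 (permutation p = 0.0323, adjusted p = 0.0646), with r = -0.252 without the 2 farthest steers and -0.041 on unscaled levels. GHR and MSTN gave r = 0.484 (permutation p = 0.112, adjusted p = 0.167) and rho = 0.490 (permutation p = 0.111, adjusted p = 0.166), with r = 0.264 without the 2 farthest. On unscaled levels r was 0.655 for this pair (permutation p = 0.0204, adjusted p = 0.0613). IGF2 and MSTN gave r = -0.409 (permutation p = 0.190, adjusted p = 0.228) and rho = -0.434 (permutation p = 0.162, adjusted p = 0.194), and r turned to 0.182 without the 2 farthest. It was -0.231 on unscaled levels. A lasting difference between steers would show as a correlation of an animal's deviations from its group mean on the 2 days. It was r = 0.576 for IGF2 (permutation within diets, p = 0.112, adjusted p = 0.207 over 3 genes; rho = 0.273, permutation p = 0.428), and 0.103 without the 2 farthest steers, of which control steer 6 was the highest. For MSTN it was r = 0.482 (permutation p = 0.138, adjusted p = 0.207; rho = 0.280, permutation p = 0.403), and for GHR -0.104 (permutation p = 0.778, adjusted p = 0.778; rho = -0.119, permutation p = 0.727). Without the 2 farthest steers these were 0.283 and -0.00687.

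Likeness to other genes was measured by Pearson's r of log2 CPM over the 24 samples, as a description. The gene most like GHR was ENSBTAG00000001425 (r = 0.947), and 399 of 11287 other genes had r above 0.8 with GHR. GHR also had r = 0.76 with the first principal component, the main axis of difference between samples over all genes tested. The 3 samples with a TMM factor above 1.3 lay highest on that axis, at 92.5 to 102. Likeness to GHR is therefore not read as particular to it. IGF2 was most like ENSBTAG00000013103 (r = 0.814), with 2 genes above 0.8. MSTN was most like ENSBTAG00000012828 (r = 0.795), with 0 genes above 0.8. Among the members, r over the 24 samples was 0.48 between GHR and MSTN, -0.24 between GHR and IGF2 and -0.44 between IGF2 and MSTN.

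**Figure D5:**
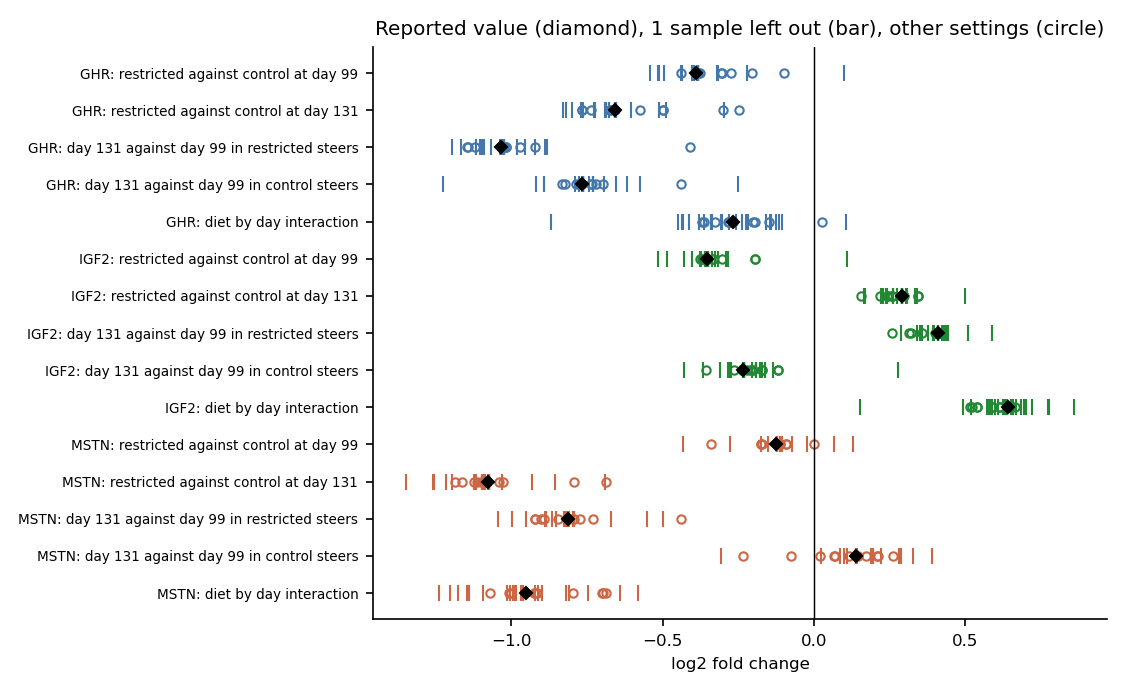
The horizontal axis gives the log2 fold change of GHR, IGF2 and MSTN in the 5 comparisons of the design, with the reported value as a diamond, fits that leave out 1 sample as bars and other settings as circles. GHR and MSTN stay below 0 and IGF2 above 0 for the days in restricted steers in every fit drawn, whereas the diet differences at day 99 include both signs when single samples are left out.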

How the data were processed

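The authors deposited, for each of 28 libraries, a table of read counts by Ensembl gene, not normalised, with CASAVA 1.4, Bowtie, SAMtools, HTSeq and the build UMD3.1 named in the submitters' processing notes. Annotation release and strand setting: not given in the sources used here. In 3 samples, technical libraries (7 in all) were summed, each set counting as 1 sample. Libraries of a set differed by less than independent sampling would give (chi-square over its degrees of freedom 0.525 to 0.807). Whether they are independent draws was not tested. Genes were filtered with filterByExpr (minimum count 10), and the 4 groups were fitted together in edgeR 4.0.16 (R 4.3.3) with TMM scaling, robust dispersions and Benjamini-Hochberg adjustment over all genes. Standard errors divide the absolute log2 fold change by the root of F. The prior count was 2 for log2 CPM. Sample totals ran from 3342314 to 24376288 counts. The labels number the steers, so the 2 days of an animal are paired. Over genes, the deviations of its samples had r from -0.605 to 0.520, with a median of 0.158 and over 0.1 in 8 of 12 steers. The consensus correlation within steers by limma's duplicateCorrelation was 0.0468. The reported fit has no steer term. Alternatives used DESeq2 1.42.0, limma 3.58.1, sva 3.50.0 and the fits of the closing section. Permutation tests used 100000 resamples, or all pairings for under 10 values. The edgeR step was tested on simulated data. The members, lists and rules were chosen with earlier results of these data known. The rule for named genes takes the 4 members and the gene most like each. The 17 gene lists of the plan (7 pathways, 10 sets of cell type markers) need symbols and were not run. Sequencing runs were read from the names of the deposited tables.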

Additional observations from a re-analysis of the deposited data

Results flagged for a closer look

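Of 22 sets of 6 values examined (each gene's CPM in each group, and the changes of GHR, IGF2 and MSTN per diet), 2 held a value set apart from the rest of its group. About 1 in 20 sets of normally distributed values would, and CPM need not be so distributed. The 2 of 22 are thus not read as more than chance gives. GHR in control steer 3 at day 99 stood at 46.46 CPM, with a gap to the next sample of 0.739 of the group's range. That sample also had the highest TMM factor, 1.69. IGF2 in control steer 6 at day 99 stood at 1388 CPM, with a gap of 0.760 of the range. That sample had the smallest total, 3342314 counts, with 4161 reads of IGF2, and the same steer was highest at day 131 too, at 880.2 CPM.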

How the results depend on the processing

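GHR, IGF2 and MSTN passed no test at 0.05 in any of the 34 or 35 alternatives of the 5 comparisons. GHR passed in 1 of 34 alternatives of the comparison over both diets, -1.17 without control steer 5 at day 131. That comparison and the correlations over 9 steers were added once the data had been seen, as were those on unscaled levels. GHR with the TMM factor gave r = 0.432 over the 9, and IGF2 with the TMM factor gave 0.049 on unscaled levels. Leaving out each sample in turn gave, for GHR between diets at day 99, -0.54 to 0.10, for IGF2 there -0.52 to 0.11 and for MSTN there -0.43 to 0.13. For the days in control steers it gave -0.43 to 0.28 for IGF2 and -0.31 to 0.39 for MSTN, for the interaction of GHR -0.87 to 0.11, and for GHR over both diets -1.17 to -0.68 (-0.42 with 1 surrogate variable). The sign of MSTN for the days in control steers also turned when the 3 samples of high TMM factor were left out (-0.23) and on counts thinned to the smallest total (-0.074). With 1 surrogate variable the interaction of GHR was 0.028 and IGF2 over both diets -0.050. The cause was not tested.

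The replicate block, which pairs the 2 days of a steer, changed no member's call: GHR in restricted steers was -0.97 (adjusted p = 0.246). The fit of only the groups compared was not run for the interaction or over both diets. Genes called between diets at day 99 numbered 0 in the fit as reported, 1 with the replicate block, 20 with DESeq2, 1 with limma voom, 2 with median-ratio size factors, 32 with the surrogate variable, 2 on thinned counts and 0 to 5 with 1 sample left out. At day 131 DESeq2 called 3. For the days in restricted steers (43), DESeq2 called 239, the 2 groups alone 92, the surrogate variable 138, the fit without the 3 samples 66, and 21 to 153 were called with 1 sample left out. For the interaction (0), DESeq2 called 2, the surrogate variable 3, and 0 to 1 were called with 1 sample left out. Over both diets (37), DESeq2 called 601, median-ratio factors 56, the run covariate 6, the fit without the 3 samples 633, thinned counts 5, and 6 to 3837 were called with 1 sample left out. Depth limits IGF1 (at most 4 reads) and MSTN (at most 3 reads in 4 samples).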

Other observations

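The technical libraries of 1 sample gave close values for the well counted members. GHR stood at 17.8 and 17.9 CPM (unscaled totals) in the 2 libraries of control steer 1 at day 99, at 8.89 and 8.98 in those of control steer 2 at day 131, and at 22.4 to 23.5 in the 3 libraries of restricted steer 2 at day 99. IGF2 stood at 480.7 and 504.1 CPM, 350.0 and 374.9 CPM, and 376.4 to 380.2 CPM in the same sets. MSTN, with 6 to 19 reads per library, stood at 2.498 and 1.62 CPM, 1.00 and 0.738 CPM, and 1.93 to 2.38 CPM. The 3 sets did not overlap for GHR or IGF2, while for MSTN the values of restricted steer 2 lay within those of control steer 1. For IGF2 the nearest values of 2 sets, 374.9 and 376.4 CPM, were closer than the 2 libraries of control steer 2 at day 131.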
